A study of Apis mellifera ligustica with 11 samples.

Results

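Genes for 4 carbohydrate enzymes and for apisimin, products known from the head glands of honeybees, were followed in brain RNA of Apis mellifera ligustica around exposure to fluvalinate, a pyrethroid used in hives against mites. The genes are Hbg3 (alpha-glucosidase), LOC406114 (alpha-amylase), LOC406081 (glucose oxidase), LOC551044 (glucose dehydrogenase) and LOC406093 (apisimin), taken by their symbols, and they make up 5 of the 9974 rows of the deposited table. All 5 had a mean of at least 1 FPKM and were among the 7830 genes tested. FPKM divides a gene's fragments by its length and by the size of its library, so levels of different genes can be compared on this scale. Of the 11 libraries 3 date from 1 day before exposure, 2 from 10 days, 3 from 20 days and 3 from 30 days of it, at the usual dose for hives and with the treatment repeated every 7 days, per the labels. All groups are brain tissue from which the royal jelly glands and pigments had been taken off, and no age, genotype or number of bees per library is given. The protocol speaks of a control and a test set without saying which one the libraries before exposure came from, and unexposed libraries of later days were not analysed here, so exposure, elapsed time and set cannot be told apart. Whether replicates are separate hives or cages is not in the labels, so the spread behind each p-value may be technical.

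The hypopharyngeal glands of a worker bee's head make the proteins of royal jelly in nurses and, in older bees, enzymes that turn nectar into honey. Alpha-glucosidase splits the sucrose of nectar, amylase splits starch, and glucose oxidase turns glucose into gluconic acid with release of hydrogen peroxide, which keeps microbes down in honey and jelly. Glucose dehydrogenase belongs to the same family of flavin enzymes as glucose oxidase but passes electrons to other acceptors, and its Drosophila relative acts in cuticle and reproductive tissue. Apisimin is a short peptide of royal jelly that binds MRJP1, the main royal jelly protein, in large complexes.

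Apisimin, Hbg3, glucose oxidase and alpha-amylase were among the most abundant transcripts of the table, and glucose dehydrogenase was not. Apisimin held rank 1 to 4 among all genes in each of the 11 libraries, and the 5 genes together took up between 2.82% and 6.83% of the summed FPKM before exposure, 15.1% and 22.1% at day 10, between 7.63% and 12.5% at day 20 and between 4.43% and 17.0% at day 30. The median over the 11 libraries was 18292 FPKM for apisimin, 4302 FPKM for Hbg3, 2476 FPKM for glucose oxidase, 1121 FPKM for alpha-amylase and 34.95 FPKM for glucose dehydrogenase. Within every library apisimin lay above Hbg3, and glucose dehydrogenase below the other 4. Hbg3 ranked between 2 and 12, glucose oxidase between 4 and 26 and alpha-amylase between 11 and 78 in a library. Glucose dehydrogenase ranked far lower and moved most, from rank 5411 in before-exposure replicate 1 to rank 193 in day 10 replicate 2. Summed FPKM per library ran from 264416 to 468358, and between 7626 and 7944 genes reached 1 FPKM. FPKM keep no read counts, so the depth is unknown.

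**Figure D1:**
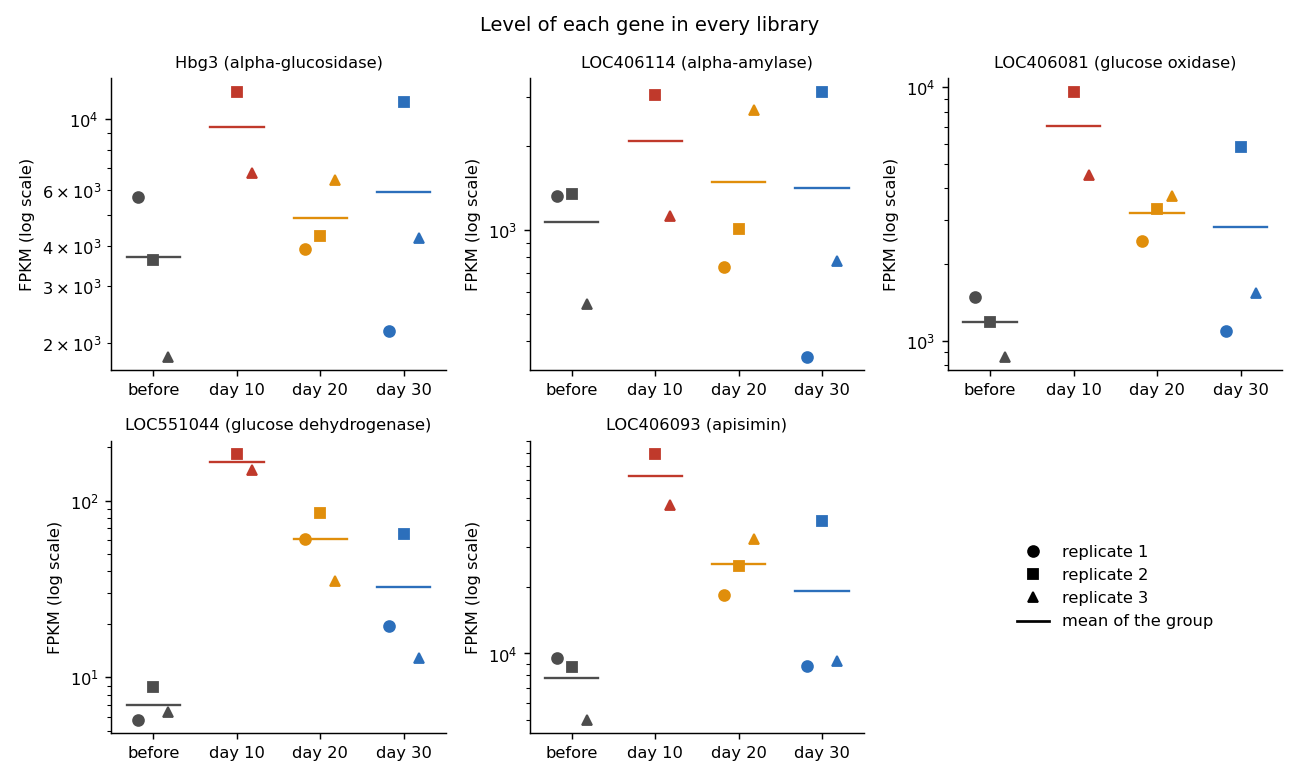
FPKM of the 5 genes in each library on log axes, by sampling time; the marker shape gives the replicate number and the line the mean of the group. Glucose dehydrogenase lies between 5.77 and 8.79 FPKM before exposure and at 148 and 183 FPKM at day 10, while alpha-amylase overlaps between all 4 sampling times.

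Apisimin stood at 9537, 8651 and 5040 FPKM in replicates 1, 2 and 3 before exposure and at 78596 and 46747 FPKM in replicates 2 and 3 of day 10. In replicates 1, 2 and 3 it reached 18292, 24642 and 32775 FPKM on day 20 and 8769, 39590 and 9223 FPKM on day 30. Both day 10 libraries and all 3 day 20 libraries were above every library before exposure, whereas replicates 1 and 3 of day 30 lay within the earlier range and replicate 2 far above it.

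Glucose oxidase measured 1490, 1187 and 863 FPKM before exposure. It measured 9608 and 4497 FPKM on day 10, 2476, 3323 and 3737 FPKM on day 20, and 1089, 5830 and 1537 FPKM on day 30. The order of the group means was that of apisimin, and day 30 was again divided, with replicate 2 high and replicate 1 inside the range before exposure. Glucose dehydrogenase measured 5.77, 8.79 and 6.39 FPKM before exposure. Its day 10 libraries had 183 and 148 FPKM, those of day 20 had 60.6, 85.5 and 34.95 FPKM, and those of day 30 had 19.6, 65.1 and 12.9 FPKM. It was the member with the widest range, 31.6-fold between the lowest and highest library, and no library of any exposed day reached down to the libraries before exposure.

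Hbg3 measured 5695, 3612 and 1805 FPKM before exposure. It measured 12134 and 6755 FPKM on day 10, 3930, 4302 and 6454 FPKM on day 20, and 2175, 11306 and 4254 FPKM on day 30. Among the exposed days only day 10 had all its Hbg3 libraries above those taken before exposure. Alpha-amylase measured 1325, 1346 and 543 FPKM before exposure. It measured 3060 and 1121 FPKM on day 10, 736, 1010 and 2714 FPKM on day 20, and 351, 3147 and 775 FPKM on day 30. Its groups overlapped in all 6 comparisons between sampling times, and its libraries differed more within day 30, 8.97-fold, than the group means did between any pair of times.

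At day 10, against the libraries before exposure, glucose dehydrogenase, apisimin and glucose oxidase rose, and alpha-glucosidase and alpha-amylase did not pass the test. Glucose dehydrogenase went from 6.98 ± 1.60 (SD, n = 3) to 165 ± 24.4 FPKM (SD, n = 2), a 23.7-fold ratio of means, apisimin from 7743 ± 2382 to 62672 ± 22521 FPKM (8.09-fold), and glucose oxidase from 1180 ± 314 to 7053 ± 3614 FPKM (5.98-fold). The test was limma on log2(FPKM + 1) over all 11 libraries, with p adjusted by Benjamini and Hochberg over the 7830 genes and a threshold of 0.05. Of all genes tested 19.2% passed at day 10, and 2.22% passed as higher, against 3 of the 5 members, all higher. Of the 1500 genes called 174 were higher, and of 777 called after median-of-ratios scaling 311 were. The median gene of this comparison lay at -0.18 on the log2 scale and at 0.02 after median-of-ratios scaling, so log2 changes are given relative to the median gene of each comparison, while p-values test the values as deposited. On that scale glucose dehydrogenase rose by 4.57 ± 0.52 (SE, adjusted p = 0.00483, limma), apisimin by 3.20 ± 0.77 (adjusted p = 0.0191, limma) and glucose oxidase by 2.69 ± 0.59 (adjusted p = 0.0142, limma). Among the 7830 genes glucose dehydrogenase had the third smallest p. The median of the 5 members was 2.51 on the log2 scale as deposited, beside -0.18 for all genes.

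Hbg3 differed at day 10 by 1.62 ± 0.65 relative to the median gene, from 3704 ± 1947 (SD, n = 3) to 9445 ± 3804 FPKM (SD, n = 2), with an interval from 0.20 to 3.04 (95%) and adjusted p = 0.144 (limma). Alpha-amylase differed by 1.08 ± 0.81, from 1071 ± 458 to 2090 ± 1371 FPKM, with an interval from -0.69 to 2.85 and adjusted p = 0.478 (limma). Both intervals include changes as large as that of glucose oxidase, so these data do not show that alpha-glucosidase and alpha-amylase stayed level. When replicate 2 of day 10 was left out, the lone library left for that day was assumed to vary like the other groups. Whether the members pass without replicate 2 therefore cannot be judged. The as-deposited log2 changes were then 4.24 for glucose dehydrogenase, 2.65 for apisimin and 1.96 for glucose oxidase. Apisimin missed the threshold without before-exposure replicate 3 (adjusted p = 0.0514, limma) and with no filter on low values (adjusted p = 0.164, limma).

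**Figure D2:**
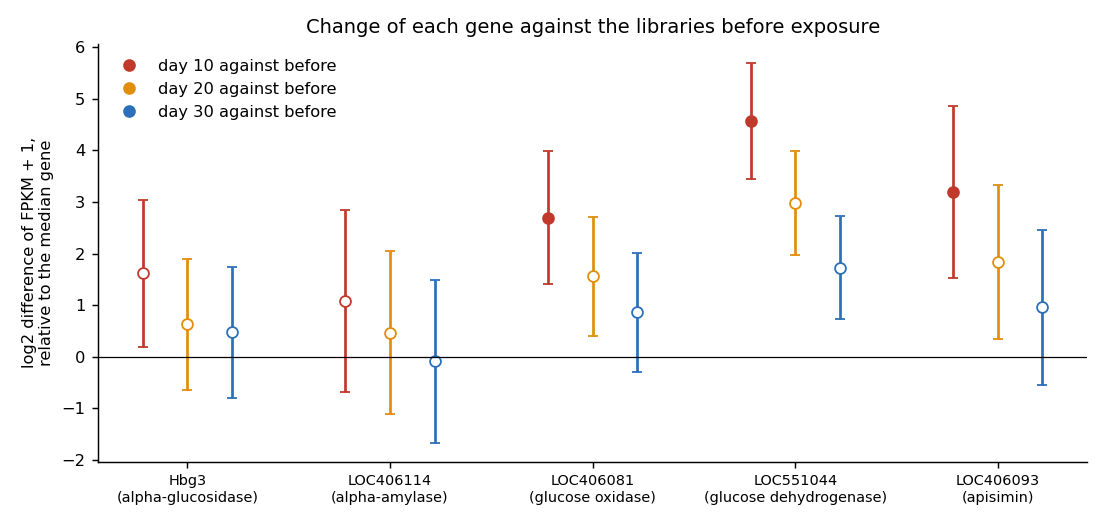
Log2 difference of FPKM + 1 of each gene at days 10, 20 and 30 against before exposure, relative to the median gene of the comparison; bars are 95% intervals from limma, and filled points passed an adjusted p of 0.05. Only the day 10 points of glucose oxidase (2.69), glucose dehydrogenase (4.57) and apisimin (3.20) are filled.

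At days 20 and 30 no member passed against the libraries before exposure, and no other gene tested did. The share of all genes called by limma was 0% at day 20 and 0% at day 30, with 774 and 562 genes at an unadjusted p under 0.05. At day 20 glucose dehydrogenase had a mean of 60.4 ± 25.3 FPKM (SD, n = 3), a difference of 2.98 ± 0.46 with adjusted p = 0.0840 (limma), the fourth smallest p of all genes. Apisimin stood at 25237 ± 7260 FPKM (1.83 ± 0.69, adjusted p = 0.449, limma) and glucose oxidase at 3178 ± 643 FPKM (1.55 ± 0.53, adjusted p = 0.442, limma), both with 3 of 3 libraries above those before exposure. With glucose dehydrogenase, 3 of 5 members had all day 20 libraries above those before exposure, beside 1.63% of all genes tested. Hbg3 and alpha-amylase overlapped with them, at 4895 ± 1362 and 1487 ± 1072 FPKM and adjusted p of 0.807 and 0.893 (limma). Glucose dehydrogenase passed at day 20 when day 30 replicate 2 or day 30 replicate 3 was left out of the shared estimate of the spread, although neither belongs to that comparison.

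At day 30 glucose dehydrogenase had no overlap with the libraries before exposure, 1 of 5 members beside 3.37% of all genes tested whose day 30 libraries were all higher. It had a mean of 32.5 ± 28.4 FPKM (SD, n = 3), a difference of 1.73 ± 0.46 and adjusted p = 0.270 (limma). The day 30 means of the others were 19194 ± 17665 FPKM for apisimin, 2819 ± 2618 FPKM for glucose oxidase, 5912 ± 4786 FPKM for Hbg3 and 1424 ± 1507 FPKM for alpha-amylase. These SDs are near the size of the means, because replicate 2 was 4.51 to 8.97 times the lowest library of day 30 in these 4 genes and stood above both others. Their differences from before exposure ran from -0.09 ± 0.73 for alpha-amylase to 0.95 ± 0.69 for apisimin, with adjusted p between 0.740 and 0.988 (limma).

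Between the exposed days, day 10 was the highest for all 5 genes by group mean, and glucose dehydrogenase fell from day 10 to day 30. Its difference was -2.85 ± 0.52 relative to the median gene with adjusted p = 0.0254 (limma), a 5.08-fold ratio of the day 10 mean to the day 30 mean. Of all genes tested 10.8% passed in this comparison and 1.37% passed as lower, against 1 of the 5 members. Of the 844 genes called 737 were higher, and of 55 called after median-of-ratios scaling 14 were. Apisimin (-2.26 ± 0.77, adjusted p = 0.101, limma) and glucose oxidase (-1.84 ± 0.59, adjusted p = 0.0938, limma) did not pass, and apisimin had no overlap between the groups. With glucose dehydrogenase, 2 of 5 members were lower with no overlap, beside 5.68% of all genes tested. The call of glucose dehydrogenase was lost without day 30 replicate 1 (adjusted p = 0.0742, limma) and without day 30 replicate 3 (adjusted p = 0.0956, limma). It was also lost with median-of-ratios scaling (adjusted p = 0.0505, limma). Without day 10 replicate 2 a lone library is left for day 10, so whether the call holds cannot be judged. Without day 30 replicate 2, apisimin and glucose oxidase passed as well, so 3 of 5 members were called lower, beside 2.41% of all genes called lower in that fit.

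Between days 10 and 20 no member passed, with 0.102% of all genes called, and adjusted p ran from 0.138 for glucose dehydrogenase to 0.733 for alpha-amylase (limma). All 5 differences were below 0, from -0.64 ± 0.81 for alpha-amylase to -1.61 ± 0.52 for glucose dehydrogenase, and 4 of 5 members, all but alpha-amylase, were lower with no overlap between the groups, beside 16.8% of all genes tested. Glucose dehydrogenase passed between these days when day 30 replicate 2 was left out (adjusted p = 0.0484, limma). The number of all genes called changed in that fit as well, so 0.102% is not its share. Between days 20 and 30 limma called 0% of all genes, with 503 at an unadjusted p under 0.05, and all 5 members overlapped between the groups. The differences between days 20 and 30 ran from -0.16 ± 0.58 for Hbg3 to -1.25 ± 0.46 for glucose dehydrogenase.

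Ratios between members within a library show how the members stood to each other. Apisimin was 1.67 to 2.79 times the level of Hbg3 before exposure, 6.48 and 6.92 times at day 10, 4.65 to 5.73 times at day 20 and 2.17 to 4.03 times at day 30. The ranges of day 10 and of day 20 overlapped neither each other nor the other times, while day 30 overlapped the range before exposure. The ratio does not change when a library is rescaled. The ratios are a description, and no test was run on them. Apisimin and glucose oxidase kept a narrower relation, with ratios of 5.84 to 7.29 before exposure, 8.18 and 10.4 at day 10, 7.39 to 8.77 at day 20 and 6.001 to 8.06 at day 30.

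Relative to glucose oxidase, glucose dehydrogenase was lowest before exposure. It amounted to 0.387 to 0.741 FPKM per 100 FPKM of glucose oxidase before exposure, 1.90 and 3.29 at day 10, 0.935 to 2.57 at day 20 and 0.839 to 1.80 at day 30, so that no exposed library fell into the range before exposure. The ratio of Hbg3 to alpha-amylase showed no such gap, with Hbg3 at 2.68 to 4.30 times alpha-amylase before exposure and at 2.38 to 6.20 times it on the exposed days.

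Set against Mrjp1, the transcript of the main royal jelly protein, Hbg3, alpha-amylase, glucose oxidase and apisimin were lowest at days 10 and 20. Hbg3 amounted to 35.5 to 243 FPKM per 100 FPKM of Mrjp1 before exposure, 9.80 and 12.5 at day 10, 7.17 to 13.9 at day 20 and 43.9 to 67.9 at day 30. The highest value is that of before-exposure replicate 1, in which Mrjp1 was at its lowest (2347 FPKM). Alpha-amylase amounted to 10.7 to 56.5 per 100 before exposure, 1.63 and 3.16 at day 10, 1.68 to 5.86 at day 20 and 10.9 to 12.4 at day 30. Apisimin amounted to 99.3 to 406 per 100 before exposure, 67.9 and 81.1 at day 10, 41.1 to 70.7 at day 20 and 147 to 274 at day 30. For Hbg3, alpha-amylase, apisimin and also glucose oxidase (14.2 to 63.5 before exposure, 6.53 and 9.92 at day 10, 5.54 to 8.07 at day 20, 22.6 to 34.0 at day 30) the libraries of days 10 and 20 lay below all those of the other times. Glucose dehydrogenase had no such gap, at 0.105 to 0.246 before exposure, 0.188 and 0.215 at day 10, 0.0754 to 0.185 at day 20 and 0.206 to 0.611 at day 30.

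**Figure D3:**
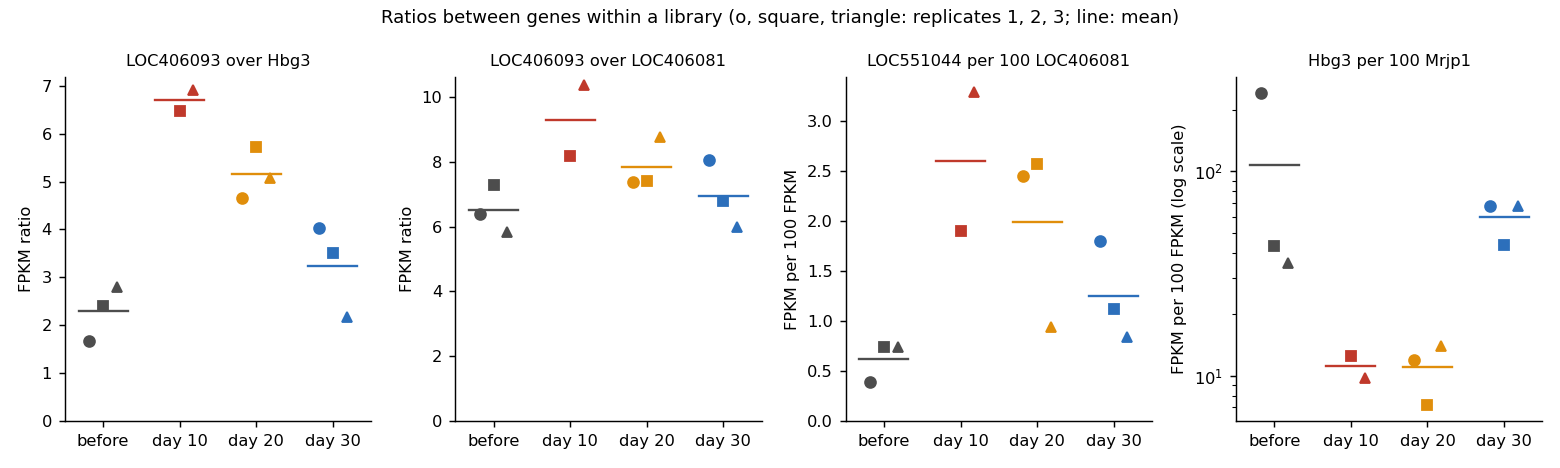
Ratios of FPKM within each library, by sampling time, with the mean of each group as a line and marker shapes for replicate numbers; the last panel has a log axis. Apisimin over Hbg3 is 6.48 and 6.92 at day 10 and lies between 2.17 and 4.03 at day 30, while Hbg3 per 100 Mrjp1 is at most 13.9 in all libraries of days 10 and 20.

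Other transcripts known from royal jelly were also higher at day 10. Of 12 rows known from royal jelly besides the members, 10 were tested. At day 10 against before exposure 7 of the 10 rose, beside 2.22% of all genes called higher. The 7 were Mrjp1, Mrjp2, Mrjp3, Mrjp4, Mrjp7, Mrjp9 and Def1 (defensin 1, the antimicrobial peptide of royal jelly). The median of the 10 tested at day 10 was 3.40 on the log2 scale as deposited, beside -0.18 for all genes. Def1 stood at 789, 798 and 483 FPKM before exposure and at 5584 and 3254 FPKM at day 10 (2.84 ± 0.66 relative to the median gene, adjusted p = 0.0174, limma). Def1 had a Pearson r of 0.961 with both apisimin and glucose oxidase over the 11 libraries on the log2(FPKM + 1) scale, and of 0.983 and 0.979 for deviations from the group means. Mrjp8, at 5.04 to 8.89 FPKM, had r between -0.05 and 0.05 with the 5 members.

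**Figure D4:**
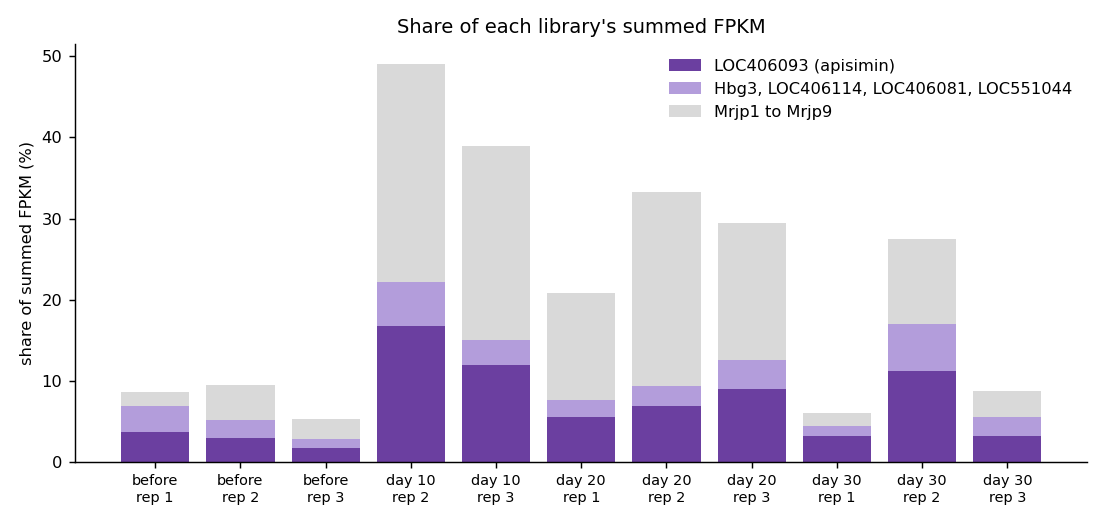
Share of the summed FPKM of each library held by apisimin, by the other 4 genes and by the royal jelly protein genes Mrjp1 to Mrjp9, stacked. The members and royal jelly genes together hold 49.1% and 39.003% at day 10 and between 5.21% and 9.51% before exposure.

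Among marker lists for tissues other than brain, the hypopharyngeal gland and fat body sums were higher in both day 10 libraries than before exposure. The sums for muscle, venom proteins, photoreceptors and haemocytes overlapped between these times. Most of the venom sum came from LOC503505 (venom protein 2), with means of 3746 FPKM before exposure and 3335 FPKM at day 10. The overlap of that sum therefore says little about the other venom genes. Earlier results of these data were known when 6 royal jelly protein genes were chosen as hypopharyngeal gland markers. Of the 6 markers 5 rose at day 10, beside 2.22% of all genes called higher. These 5 are among the 7 royal jelly rows named above and are no separate evidence. Mrjp6 is not on that list and did not pass at day 10 (adjusted p = 0.990, limma). Its mean was 721 FPKM before exposure and 778 FPKM at day 10. The sum of the 6 was 3655 to 12122 FPKM before exposure, 93852 and 125084 at day 10, 43692 to 84935 at day 20 and 3978 to 34347 at day 30, with none at 0. Of 9 neuronal markers all 9 fell at day 10, with a median of -1.001 on the log2 scale as deposited beside -0.18 for all genes, and their sum was 636 to 725 FPKM before exposure, 286.6 and 391.7 at day 10, 532 to 567 at day 20 and 547 to 697 at day 30. Which cells the royal jelly transcripts came from was not tested, and in bulk tissue more cells and more RNA per cell cannot be told apart. Of 6 fat body markers 5 were tested and 1 rose at day 10 (A4, an apolipophorin-III-like protein), with sums of 67.9 to 93.5 FPKM before exposure, 359 and 749 at day 10, 60.6 to 103 at day 20 and 33.2 to 615 at day 30, the highest of day 30 being replicate 2. Of 18 tested muscle markers none rose and 2 fell. Of 16 tested genes described as venom proteins 4 rose and 2 fell. Of all genes 2.22% were called higher and 16.9% lower at day 10. The venom genes that rose were LOC725215, LOC409143, LOC726737 and Acph-1, and those that fell were LOC409468 and LOC411229. Melittin, the main venom peptide, measured 0.23 to 1.38 FPKM before exposure, 15.35 and 4.71 FPKM at day 10 (adjusted p = 0.0633, limma), 0.21 to 2.44 FPKM at day 20 and 0.15, 11.7 and 0 FPKM in replicates 1, 2 and 3 of day 30. The remaining lists had at day 10 no gene higher and 1 of 9 lower for photoreceptors, 1 of 4 higher for haemocytes, 2 of 4 lower for glia and none called of 9 mitochondrially encoded transcripts. The part of gland or other tissue in the members' changes was not tested. With the summed royal jelly level as a covariate, a level that itself differs between the sampling times, limma called no gene at day 10. The as-deposited log2 changes of the members were 2.21 for glucose dehydrogenase, 0.66 for apisimin, 0.03 for glucose oxidase, -0.70 for Hbg3 and -2.45 for alpha-amylase.

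Within a sampling time the libraries high in 1 member were mostly high in the others, least so for glucose dehydrogenase. For deviations from the group means over the 11 libraries, r was between 0.917 and 0.972 for every pair among apisimin, glucose oxidase, Hbg3 and alpha-amylase, and between 0.408 and 0.663 for glucose dehydrogenase with each of the others. These are descriptions of 11 libraries, with no test, and all genes of a library are divided by the same library size. Over the 11 libraries without that subtraction, apisimin and glucose oxidase were each the closest gene to the other among 7829 genes (r = 0.986), and Hbg3 was the closest gene to alpha-amylase (r = 0.897). Glucose dehydrogenase was closer to apisimin (r = 0.918) and glucose oxidase (r = 0.890) than to Hbg3 (r = 0.635) and alpha-amylase (r = 0.425). In day 30 replicate 2 all 5 members were above their group mean by 1.26 to 1.73 on the log2 scale, and in that library the summed royal jelly level was above its own by 1.71. That library had the largest deviation of each member, so it weighs heavily in the r of deviations. In before-exposure replicate 1 the summed royal jelly level deviated by -0.68 and glucose dehydrogenase by -0.22. Hbg3, alpha-amylase, glucose oxidase and apisimin deviated there by 0.77, 0.42, 0.37 and 0.35.

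Outside the 5 members, and with uncharacterized rows and rows known only from StringTie left out, the 5 genes most like each member were taken by Pearson r over 11 libraries. For apisimin and glucose oxidase the same 5 genes came first among these. They were Y-h (yellow-h, r = 0.977 and 0.979), LOC411260 (Rab-27A, a small GTPase of secretory vesicles, 0.972 and 0.957), LOC113218518 (a chymotrypsin inhibitor-like gene, 0.969 and 0.961), LOC550677 (mab-21, 0.965 and 0.947) and Def1. Y-h itself was low, with a mean of 3.08 FPKM, and LOC113218518 high, with a mean of 2349 FPKM. For Hbg3 and alpha-amylase the first gene outside the members was LOC726935, described as a cardioacceleratory peptide receptor (r = 0.926 and 0.896). Hbg3 was followed by LOC411685 (ATP-binding cassette sub-family D member 1, 0.870), LOC725462 (vesicular glutamate transporter 2.1, 0.864), LOC100577174 (ras-responsive element-binding protein 1, 0.864) and CPR28 (cuticular protein 28, 0.861). Alpha-amylase was followed by LOC410149 (carboxypeptidase Q, 0.873), Mrjp6 (0.860), LOC724874 (trehalose transporter Tret1, 0.857) and LOC725114 (a chymotrypsin inhibitor, 0.839). For glucose dehydrogenase the order, members left out, was LOC408522 (ADP-ribosylation factor-like protein 3, 0.974), LOC409708 (glucosylceramidase-like, 0.941), LOC551263 (monocarboxylate transporter 13, 0.920), LOC725344 (histone H2B, 0.915) and Mrjp1 (0.913). With Spearman rho in place of Pearson r, 2 of the first 5 genes were shared for Hbg3 and 3 for glucose dehydrogenase.

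Most other carbohydrate enzymes were far less abundant and did not pass the test. Of 25 further rows described as glucosidases, maltases, trehalases, glucose dehydrogenases or related enzymes 16 were tested, and 1 rose and 1 fell at day 10, with a median of -0.02 on the log2 scale as deposited beside -0.18 for all genes. Their sum was 233 to 246 FPKM before exposure and 262 and 335 FPKM at day 10, and 2 of the 25 were at 0 in every library. AGLU2 (alpha glucosidase 2) is not among the 25, and with it the sums were 356 to 378 FPKM before exposure and 371 and 444 FPKM at day 10. The one that rose was LOC410733, another glucose dehydrogenase, which went from 19.6, 28.0 and 14.05 FPKM to 150.3 and 64.5 FPKM (2.44 ± 0.42, adjusted p = 0.00683, limma). The one that fell was LOC413098, also described as glucose dehydrogenase, from 8.25 ± 1.19 (SD, n = 3) to 3.92 ± 0.22 FPKM (SD, n = 2). Of the other genes LOC410795, a trehalase, which splits the blood sugar of insects, stood at 58.7 to 107 FPKM over the 11 libraries and did not pass at day 10 (-0.26 ± 0.17, adjusted p = 0.0929, limma), nor did LOC410484, a second trehalase (0.70 ± 0.23, adjusted p = 0.141, limma). From day 10 to day 30 LOC408603, LOC410733 and LOC410734, all described as glucose dehydrogenases, fell and none rose. These are 3 of the 16 tested, beside 1.37% of all genes called lower and 9.41% called higher. LOC410734 was low, at 0.25 to 2.84 FPKM in the 11 libraries. Hbg2, another alpha-glucosidase of the honeybee, named here after its values were seen, stood between 0.37 and 2.25 FPKM in the 11 libraries, against 1805 to 12134 FPKM for Hbg3.

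Some genes next to the members were also called at day 10. Neighbours are given in the RefSeq gene order of the assembly Amel_HAv3.1. These neighbours were looked up after their values were seen, and no strand is stated for the deposited values, so shared reads between adjoining genes were not tested. Glucose dehydrogenase LOC551044 and glucose oxidase LOC406081 are direct neighbours. On the other side of glucose oxidase lies LOC725038, a homologue of the cholesterol carrier NPC2, which measured 91.7, 133 and 93.2 FPKM before exposure and at 297 and 228 FPKM at day 10 and rose (1.49 ± 0.25, adjusted p = 0.00703, limma). On the other side of glucose dehydrogenase lies LOC411116, described as nephrin, which fell from 13.6 ± 1.02 (SD, n = 3) to 8.81 ± 0.84 FPKM (SD, n = 2) (-0.39 ± 0.17, adjusted p = 0.0318, limma). The gene beyond LOC725038, LOC552513 (neural cell adhesion molecule 2), did not pass (adjusted p = 0.992, limma), and 16.9% of all genes were called lower at day 10.

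Apisimin has 2 glucosylceramidase genes, for lysosomal enzymes that split glucose from glycolipids, on 1 side. The nearer, LOC409708, stood at 83.5, 115 and 73.8 FPKM before exposure and at 674 and 572 FPKM at day 10 (2.96 ± 0.61, adjusted p = 0.0106, limma), and had r = 0.938 with apisimin. The farther, LOC409709, stood at 152, 189 and 52.8 FPKM before exposure and at 340 and 336 FPKM at day 10 and did not pass (1.72 ± 0.63, adjusted p = 0.110, limma). Hbg3 lies beside AGLU2 (alpha glucosidase 2, for which RefSeq lists Hbg1 as a synonym), which stood between 101 and 152 FPKM in all 11 libraries, with r = -0.07 with Hbg3 and adjusted p = 0.320 at day 10 (limma). On the other side the nearest tested gene, LOC724389 (a calcium/calmodulin-dependent cyclic nucleotide phosphodiesterase), fell from 44.4 ± 1.09 (SD, n = 3) to 29.4 ± 6.59 FPKM (SD, n = 2) at day 10 (-0.42 ± 0.14, adjusted p = 0.0139, limma). Hbg3 itself had a 6.72-fold range between its lowest and highest library. The nearest tested genes on either side of alpha-amylase were LOC550732 (trichohyalin) and the uncharacterized LOC100578423, with r of -0.93 and -0.86 with it over the 11 libraries. Both had lower means at day 10 than before exposure, and neither passed (adjusted p = 0.190 and 0.123, limma).

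**Figure D5:**
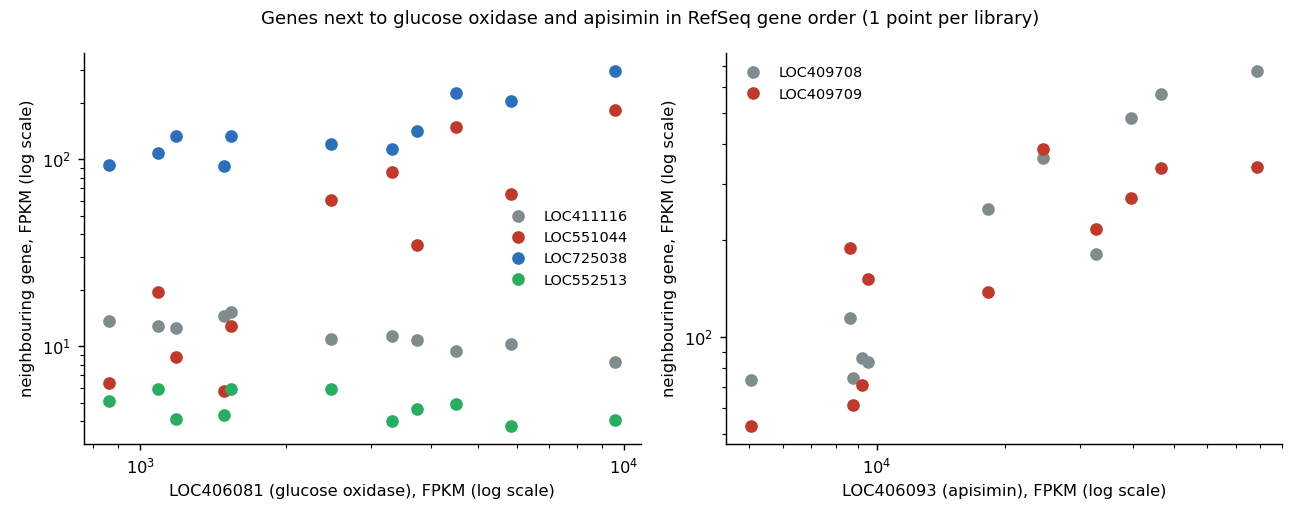
FPKM of neighbouring genes against glucose oxidase (left) and apisimin (right), 1 point per library, on log axes. LOC551044, LOC725038 and LOC409708 are highest in the library with the highest glucose oxidase and apisimin (9608 and 78596 FPKM), while LOC411116 is lowest there at 8.21 FPKM.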

How the data were processed

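The deposited table gives FPKM per gene and library, made by the authors per the file headers. Per the submitters' processing notes, StringTie, HISAT2 2.1.0 and fastp 0.18.0 were used, with no role named. The genome build, the annotation and any use of strand were not given in the sources used here. Of 12 FPKM columns 1, whose header names day 10 and replicate 1, matches none of the 11 labelled samples and was not used, which leaves 2 libraries at day 10. All 9935 NCBI gene numbers matched the RefSeq gene table of Amel_HAv3.1, used for names and gene order only. limma 3.58.1 in R 4.3.3 was fitted to log2(FPKM + 1) of genes averaging 1 FPKM or more, with a mean-variance trend, group means of 11 libraries and 7 residual degrees of freedom; the script was tested on simulated data. Such log2 values understate changes of low genes. No depth is known, so precision rests on the spread between libraries, and no pair of libraries shared identical values in more than 1.41% of genes. The 5 genes, the lists and the naming rule (the 5 genes of highest r for each member) were chosen with earlier results of these data known. Tables of protein and promoter sequences were not used here. Alternatives were other pseudocounts, no filter, other scalings, no trend, a replicate block, the summed royal jelly gene level as a covariate and leaving out each library.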

Additional observations from a re-analysis of the deposited data

Results flagged for a closer look

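The change of glucose dehydrogenase LOC551044 against the libraries before exposure was larger at day 10 than at day 30. The difference between the days was -2.63 on the log2 scale as deposited (limma adjusted p = 0.0254), and all 3 day 30 libraries (12.9 to 65.1 FPKM) lay below both day 10 libraries (148 and 183 FPKM).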

How the results depend on the processing

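Under the 7 alternatives other than the covariate and left-out libraries, no member's difference changed sign. Pseudocount 0.1, no filter and no trend each gave 0 genes between days 10 and 20 (pseudocount 5 gave 28), and no filter and no trend gave 501 and 406 between days 10 and 30. Without the filter apisimin (3.02 at day 10) missed the threshold. Median-of-ratios scaling called 777 genes at day 10, 32 between days 10 and 20 and 55, with 0 members, between days 10 and 30; equal sums without gland genes called 907, 34 and 119. The replicate numbers did not pair libraries (r from -0.24 to 0.31 over 15 same-number pairs, 4 of 11 libraries closest to their own number); with a replicate block LOC551044 passed at day 20 (2.87), as 1 member among 11 genes, and 414 genes passed between days 10 and 30.

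With the summed royal jelly level as covariate, day 10 gave 0 genes and 0 members (Hbg3 -0.70, LOC406114 -2.45, LOC406081 0.034, LOC551044 2.21, LOC406093 0.66), and day 20 gave 3 genes (Hbg3 -1.16, LOC406114 -2.28, LOC406081 -0.51, LOC406093 -0.14). It called 1 gene at day 30, 16 between days 10 and 20 (LOC406114 0.16), 4 between days 20 and 30 (Hbg3 1.34, LOC406114 1.72, LOC406081 1.02, LOC551044 0.27, LOC406093 0.77), and 5 with 0 members between days 10 and 30 (Hbg3 0.87, LOC406114 1.88, LOC406081 0.48). Why these values moved was not tested.

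Leaving out each library gave 2 to 1696 genes and 0 to 3 members at day 10, 0 to 14 and 0 to 1 at day 20, 0 to 7 genes at day 30, 0 to 549 and 0 to 1 between days 10 and 20, 0 to 1 genes between days 20 and 30, and 0 to 1247 and 0 to 3 between days 10 and 30. The log2 changes ran at day 10 from 1.96 to 3.06 for LOC406081, 4.24 to 4.55 for LOC551044 and 2.65 to 3.40 for LOC406093. At day 20 they ran from 2.58 to 3.21 for LOC551044 and -0.20 to 0.74 for LOC406114, and at day 30 from -0.13 to 1.06 for Hbg3 and -0.92 to 0.66 for LOC406114. Between days 10 and 20 LOC406114 ran from -1.27 to 0.17, and between days 20 and 30 Hbg3 ran from -0.65 to 0.54 and LOC406114 from -1.28 to 0.31. Of 30 member differences 24 kept their sign throughout. FPKM without counts give no depth, so counting error is unknown.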
